A study of Mus musculus with 35 samples.

Results

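Ripor2, Itga4, Naaladl2, Sox4 and Arrdc3 are 5 of 19938 genes measured in the quadriceps muscle of female mice aged 2 months. They were chosen by their measured values, as genes high in muscle that lacks myostatin and raised mainly there. Each is described by the table row annotated with that symbol alone, taking for Naaladl2 the brightest of its 4 rows. The rows used were 10404152 for Ripor2, 10473125 for Itga4, 10497490 for Naaladl2, 10408450 for Sox4 and 10406407 for Arrdc3. Mice fell into 4 classes: Mstn-null mice, mice that had received 1 dose of ActRIIB-Fc, mice that had received 4 doses of it, and control mice. ActRIIB-Fc is a decoy receptor, the ligand-binding part of activin receptor IIB fused to an antibody Fc, which takes up myostatin and some of its relatives. Experiment 1 had 3 mice per class. Experiment 2 had 8 Mstn-null mice and 5 mice in each other class. One array was run per mouse, and the labels call the mice of a group biological replicates. The sources used here give neither the strain, the Mstn allele, the amount and timing of the doses nor what control mice received.

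The Mstn-null class carries the values on which the genes were chosen. Its differences from control and from the treated classes are therefore given as descriptions without a test. The changes after dosing were tested, but they share the control arrays with the comparison that chose the genes. Since the genes were picked as raised mainly in Mstn-null muscle, a missing rise after dosing is not independent of the choice either.

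Myostatin is a secreted protein of the transforming growth factor beta family that restrains muscle growth. It signals through activin type II receptors to the transcription factors Smad2 and Smad3, which recognise short motifs in DNA. Ripor2 is an intracellular signalling protein that has been studied in fusing muscle cells and in hair cells of the ear. Itga4 encodes the alpha 4 integrin subunit, which pairs with the beta 1 or beta 7 subunit and binds the adhesion protein Vcam1 and fibronectin. It is best known from leukocytes and occurs on developing muscle as well. Naaladl2 encodes a relative of glutamate carboxypeptidase II whose function is little known. Sox4 is a transcription factor with a DNA-binding HMG box, active in progenitor cells of many tissues. Arrdc3 is an alpha-arrestin, an adaptor that brings ubiquitin ligases of the Nedd4 family to membrane receptors such as the beta-adrenergic receptors.

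Promoter sequence is shown for the genes with an entry in the RefSeq promoter table of build GRCm38.p6, which held 4 of the 5 genes. Each sequence covers the 250 bases before an annotated start, and capitals mark CAGAC or its reverse complement GTCTG, the letters of the short Smad-binding motif. Ripor2 and Itga4 are shown because they were called after 4 doses, and Sox4 and Arrdc3 because they were not. The first Ripor2 start lies at chr13:24581939-24582188 and the third at chr13:24638398-24638647, both on the plus strand.
Ripor2, the first start: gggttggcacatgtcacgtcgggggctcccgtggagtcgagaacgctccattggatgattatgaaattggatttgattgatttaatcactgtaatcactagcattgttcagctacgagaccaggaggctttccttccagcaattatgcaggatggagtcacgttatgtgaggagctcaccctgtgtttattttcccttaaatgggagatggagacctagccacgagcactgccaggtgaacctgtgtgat
Ripor2, the third start: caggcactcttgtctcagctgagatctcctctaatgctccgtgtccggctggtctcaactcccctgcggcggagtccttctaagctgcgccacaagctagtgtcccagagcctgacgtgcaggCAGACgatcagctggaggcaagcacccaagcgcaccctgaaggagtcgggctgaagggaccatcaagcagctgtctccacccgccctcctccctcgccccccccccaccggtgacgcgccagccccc
The Itga4 sequence lies at chr2:79255176-79255425 on the plus strand.
Itga4: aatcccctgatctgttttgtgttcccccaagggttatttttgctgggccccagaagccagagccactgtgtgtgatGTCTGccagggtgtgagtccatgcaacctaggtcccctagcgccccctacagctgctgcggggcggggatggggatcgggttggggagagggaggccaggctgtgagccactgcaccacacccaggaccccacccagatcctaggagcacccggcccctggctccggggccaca
The Sox4 sequence lies at chr13:28953700-28953949 on the minus strand.
Sox4: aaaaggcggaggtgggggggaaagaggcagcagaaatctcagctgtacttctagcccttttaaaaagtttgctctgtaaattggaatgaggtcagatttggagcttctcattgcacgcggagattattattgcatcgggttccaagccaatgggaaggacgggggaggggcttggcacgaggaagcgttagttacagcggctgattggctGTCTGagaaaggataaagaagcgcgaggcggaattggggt
The first Arrdc3 start lies at chr13:80883134-80883383 on the plus strand.
Arrdc3, the first start: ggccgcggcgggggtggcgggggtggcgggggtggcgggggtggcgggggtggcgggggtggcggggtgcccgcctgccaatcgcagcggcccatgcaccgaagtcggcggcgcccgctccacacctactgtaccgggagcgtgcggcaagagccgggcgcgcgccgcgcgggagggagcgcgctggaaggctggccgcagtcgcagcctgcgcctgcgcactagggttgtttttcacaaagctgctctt
CAGAC, read on both strands, occurred 1 time in Itga4, in Sox4, at the last of 3 Ripor2 starts and at the most downstream of 3 Arrdc3 starts. It was found in 42.2% of all 32851 promoters of the table, so its presence is common. The E-box CANNTG, bound by myogenic factors, occurred 2 times at the first Ripor2 start, 3 times at the third and 1 time each in Itga4 and Sox4. No match was found at any Arrdc3 start, and 66.2% of all promoters held one. TGTTTAC, a FoxO motif held by 3.2% of promoters, and AACAAAG, a Sox motif held by 5.0%, were in none of these 250-base windows. The E-box reads the same on both strands, and overlapping matches were counted. A match of letters is a description of the sequence and says nothing on binding.

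The labels were first checked with Mstn, whose log2 change in Mstn-null against control muscle was -2.30 ± 0.23 SE (limma adjusted p = 3.54e-08). All 8 skeletal muscle fibre markers were measured, and the lowest of them stood at the 99.8 percentile of mean row brightness. Array medians (log2) ran from 4.39 to 4.52 in experiment 1. They ran from 6.06 to 6.27 in experiment 2, so values are compared only inside an experiment. Mstn-null arrays had a narrower spread of values than controls, with a median interquartile range of 2.68 against 2.84 in experiment 2 and 2.80 against 3.00 in experiment 1. Mstn-null replicates 6, 7 and 8 of experiment 2 stood apart, with ranges of 2.52, 2.60 and 2.59. Of all genes, 25.4% were called higher and 16.4% lower in Mstn-null muscle, 5062 against 3275 genes, or 1476 against 4402 once arrays were centred on their medians. With the array range as a term in the fit only 0.988% of genes were called higher and 0.492% lower there. The median change of all genes was 0.085, and -0.020 after centring. Centring also turned the split of calls after 1 dose to 67 higher and 131 lower, against 108 and 114, and after 4 doses to 235 and 274, against 380 and 246.

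The 5 genes fell into 3 patterns. Ripor2 and Itga4 were high in Mstn-null muscle and rose after 4 doses as well, by less. Naaladl2 and Sox4 were high in Mstn-null muscle and passed no test after dosing. For Sox4, Mstn-null and control arrays overlapped in both experiments. Arrdc3 goes against the description of the set, with a Mstn-null change of 0.27 that ranked 2254 of 19938 and a fall after 1 dose. In 4 doses against control, 2 of the 5 genes passed an adjusted p of 0.05, both higher, against 3.14% of all genes (1.91% higher and 1.23% lower). In 1 dose against control, 1 of 5 passed, lower, against 1.11% of all genes (0.542% higher and 0.572% lower). In 4 doses against 1 dose, 0 of 5 passed in limma, against 0.321% of all genes. There 3 of 5 had an unadjusted p under 0.05, a share that was not counted over all genes. In experiments 1 and 2 these changes were -0.075 and 0.46 for Ripor2, 0.40 and 0.37 for Itga4, and 1.24 and 0.053 for Arrdc3.

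**Figure D1:**
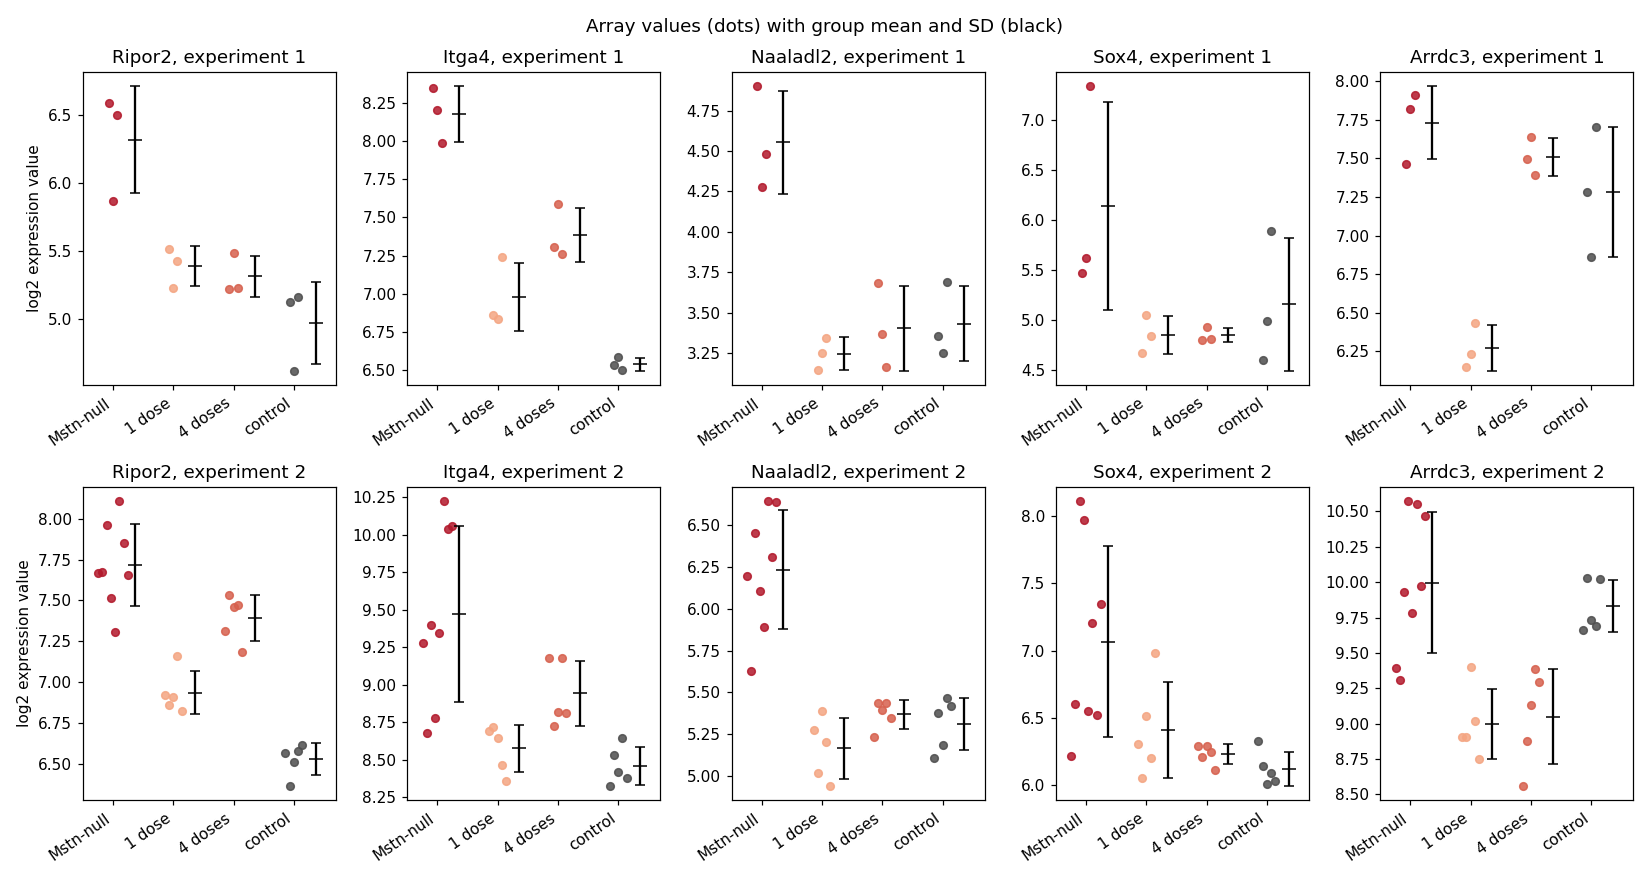
Log2 expression value (y axis) of each array for the 5 genes (columns) in experiments 1 and 2 (rows), by class on the x axis, with the group mean and SD in black beside the dots. Mstn-null arrays lie above every control array for Ripor2, Itga4 and Naaladl2 in both experiments, and overlap with controls for Sox4 and Arrdc3.

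Ripor2 was high in Mstn-null muscle and rose by less after 4 doses. In experiment 1 its log2 values were 6.59, 5.87 and 6.50 in Mstn-null mice, 5.52, 5.23 and 5.43 after 1 dose, 5.22, 5.49 and 5.23 after 4 doses, and 5.13, 4.62 and 5.17 in controls. Every array of the other 3 classes lay above every control, as for 0.893% of all genes, and no treated array reached the Mstn-null values. The 8 Mstn-null arrays of experiment 2 had a lowest value of 7.31, a median of 7.67 and a highest value of 8.10. The values there were 6.93, 6.86, 6.91, 7.16 and 6.83 after 1 dose, 7.31, 7.54, 7.46, 7.47 and 7.19 after 4 doses, and 6.57, 6.37, 6.51, 6.58 and 6.62 in controls. All 5 arrays after 4 doses again lay above the controls, as for 4.15% of all genes, and 4 of them reached the lowest Mstn-null array.

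The log2 change of Ripor2 over both experiments was 1.22 ± 0.11 SE in Mstn-null against control, a 2.34-fold higher level that ranked 2 among 19938 genes. After 4 doses it was 0.67 ± 0.12 SE, or 1.59-fold higher (limma adjusted p = 0.000337). This rise was 0.86 in experiment 2 (adjusted p = 4.68e-05) and 0.34 in experiment 1 (adjusted p = 0.563). The difference between experiments did not pass over all genes (adjusted p = 0.562, unadjusted p = 0.0194). After 1 dose the change was 0.41 ± 0.12 SE and just missed the threshold (adjusted p = 0.0723), although all 8 treated arrays lay above the controls of their experiment. That complete separation in both experiments held for 0.406% of all genes after 1 dose and for 0.873% after 4 doses. The change after 4 doses against 1 dose was 0.26, with a 95% interval of 0.023 to 0.49 (adjusted p = 0.577). It was -0.075 in experiment 1 and 0.46 in experiment 2, so only experiment 2 showed a rise between doses. That difference did not pass over all genes (adjusted p = 0.48, unadjusted p = 0.0169). Treated muscle stayed below Mstn-null muscle, with a change of -0.55 ± 0.11 SE after 4 doses and -0.81 ± 0.11 SE after 1 dose.

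The family members Ripor1 and Ripor3, named for their kinship and not by their p, had changes after 4 doses of -0.13 (limma adjusted p = 0.486) and 0.068 (adjusted p = 0.779), so neither passed.

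Itga4 was high in Mstn-null muscle and rose after 4 doses, with treated values between both other levels. Its log2 values in experiment 1 were 8.35, 8.20 and 7.99 in Mstn-null mice, 6.86, 6.83 and 7.24 after 1 dose, 7.30, 7.59 and 7.26 after 4 doses, and 6.53, 6.58 and 6.50 in controls. The 4 classes did not overlap in this experiment, in the order control, 1 dose, 4 doses, Mstn-null. This held for 1 of 19938 genes (0.00502%), an order looked for after it was seen. The order includes the high Mstn-null values on which the gene was chosen, so this share lends it no support. The highest array after 1 dose, at 7.238, lay just below the lowest after 4 doses, at 7.258. Mstn-null arrays of experiment 2 ran from 8.68 over a median of 9.37 to 10.22. The values were 8.69, 8.72, 8.64, 8.47 and 8.36 after 1 dose, 9.18, 8.73, 8.82, 9.18 and 8.81 after 4 doses, and 8.33, 8.53, 8.42, 8.64 and 8.38 in controls. Arrays after 4 doses all lay above the controls and all within the Mstn-null range, whereas arrays after 1 dose overlapped with controls.

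Over both experiments the change of Itga4 was 1.22 ± 0.15 SE in Mstn-null against control, 2.33-fold higher and ranked 3. It was 1.64 in experiment 1 and 1.01 in experiment 2. After 4 doses the change was 0.62 ± 0.16 SE, 1.54-fold higher (adjusted p = 0.0191). It was 0.85 in experiment 1 (adjusted p = 0.0259) and 0.48 in experiment 2 (adjusted p = 0.335), without a difference between experiments that passed (adjusted p = 0.888). After 1 dose it was 0.24 ± 0.16 SE (adjusted p = 0.578), with a 95% interval of -0.082 to 0.56. Arrays after 4 doses lay above those after 1 dose in both experiments, which held for 0.311% of all genes, and the change between them was 0.38 ± 0.16 SE (adjusted p = 0.481).

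The 3 highest Mstn-null values of Itga4 in experiment 2, 10.22, 10.04 and 10.06, came from replicates 6, 7 and 8, the arrays with the narrowest spread. Without these arrays the Mstn-null change was 1.01 for Itga4, 1.19 for Ripor2, 0.89 for Naaladl2, 0.97 for Sox4 and 0.15 for Arrdc3. Over the 35 arrays, centred on their experiment, the correlation with the interquartile range was -0.71 for Itga4, -0.63 for Ripor2, -0.64 for Naaladl2, -0.32 for Sox4 and -0.39 for Arrdc3. Class differences make up part of these values. Within groups the correlations with the range were -0.34, -0.18, -0.11, 0.25 and 0.047 in the same order. With the range as a term in the fit the Mstn-null change was 0.97 for Itga4, 1.22 for Ripor2, 0.95 for Naaladl2, 1.26 for Sox4 and 0.18 for Arrdc3.

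Of the partners of Itga4, 1 gene passed after dosing. Of 9 other measured partner and ligand genes, Vcam1, its ligand on endothelium and also on satellite cells, rose after 4 doses by 0.34 (adjusted p = 0.00904). After 1 dose 0 of 9 passed in limma, and 1 had an unadjusted p under 0.05. Fn1, the fibronectin gene, had a change of 0.35 after 4 doses (adjusted p = 0.426) and the beta 7 subunit gene Itgb7 one of 0.24 (adjusted p = 0.106). The beta 1 subunit gene Itgb1, named as the main partner and not by its p, had a change of 0.11 after 4 doses (adjusted p = 0.771). In Mstn-null muscle Itgb1 was lower, by -0.42 ± 0.12 SE (adjusted p = 0.00731), while Itgb7 was higher, by 0.34 ± 0.08 SE (adjusted p = 0.000918). Under quantile normalization Itgb7 passed (adjusted p = 0.00919) and Itgb1 did not (adjusted p = 0.0791). With the array range as a term neither passed (adjusted p = 0.759 for Itgb1 and 0.428 for Itgb7). The median change of these genes after 4 doses was 0.14, against 0.020 for all genes.

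Among 17 other integrin alpha subunits, Itgax, found on myeloid cells, passed after 4 doses with 0.35 (adjusted p = 0.0398). It did not pass under quantile normalization (adjusted p = 0.0591) or with the array range as a term (adjusted p = 0.0904). After 1 dose 0 of 17 passed in limma, and 2 had an unadjusted p under 0.05. Itga6, the laminin-binding alpha 6 subunit, had a change of 0.35 after 4 doses (adjusted p = 0.118). The median change of the 17 was 0.088 after 4 doses.

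Leukocytes also carry Itga4, so their markers are given beside it. Of 12 myeloid markers, 7 rose after 4 doses and 0 fell, with a median change of 0.54 against 0.020 for all genes. Laptm5 rose by 0.67 (adjusted p = 0.00134) and Cd68, a lysosomal protein of macrophages, by 0.68 (adjusted p = 0.00298). In experiment 2 the mean log2 value of these 12 genes was 6.56 to 7.23 in Mstn-null mice, 6.52 to 7.14 after 1 dose, 7.02 to 7.26 after 4 doses and 6.29 to 6.57 in controls. In experiment 1 it was 4.56 to 4.85 in Mstn-null mice, 4.62 to 5.00 after 1 dose, 4.87 to 5.16 after 4 doses and 4.54 to 5.05 in controls. The list's Mstn-null and control values overlapped in experiment 1 and nearly separated in experiment 2. After 1 dose 0 of the 12 passed in limma, with 6 at an unadjusted p under 0.05, and in Mstn-null muscle 6 rose, or 3 after either quantile normalization or centring. With the array range as a term 2 of the 12 rose in Mstn-null muscle, against 0.988% of all genes. The median change of the 12 there was 0.34 with that term and 0.26 without it. Of 11 lymphocyte and leukocyte markers, 0 passed in limma after 4 doses, with 3 at an unadjusted p under 0.05. Ptprc, which marks all leukocytes, had a change of 0.35 (adjusted p = 0.0969). In Mstn-null muscle 5 of the 11 rose, or 2 after either quantile normalization or centring. With the array range as a term 0 of 11 passed in limma, with 2 at an unadjusted p under 0.05, and the median was -0.021. Few genes of any kind passed there. Ptprc rose by 0.29 in Mstn-null muscle (adjusted p = 0.0304). It did not pass under quantile normalization (adjusted p = 0.142) or with the array range as a term (adjusted p = 0.393). The mean of the 11 genes in experiment 2 was 5.54 to 5.76 in Mstn-null mice and 5.34 to 5.43 in controls, without overlap. The array medians there did not overlap either, at 6.15 to 6.27 in Mstn-null mice and 6.06 to 6.12 in controls. In experiment 1 the mean of the 11 genes was 3.800 to 3.861 in Mstn-null mice and 3.763 to 3.804 in controls, with overlap. The part of these cells in the Itga4 result was not tested, and in whole muscle more cells of a type and more RNA per cell cannot be told apart.

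On its brightest row Naaladl2 was high in Mstn-null muscle and near the control level after dosing. The log2 values in experiment 1 were 4.90, 4.28 and 4.48 in Mstn-null mice, 3.14, 3.25 and 3.35 after 1 dose, 3.68, 3.37 and 3.16 after 4 doses, and 3.35, 3.25 and 3.69 in controls. Treated and control arrays overlapped, and all Mstn-null arrays lay above them. Mstn-null arrays of experiment 2 ran from 5.63 over a median of 6.26 to 6.64. The values were 5.28, 5.01, 5.39, 5.20 and 4.94 after 1 dose, 5.23, 5.43, 5.39, 5.43 and 5.34 after 4 doses, and 5.10, 5.38, 5.18, 5.47 and 5.42 in controls. Again no treated array exceeded the highest control, and every Mstn-null array lay above all others.

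The Mstn-null change of Naaladl2 was 0.98 ± 0.11 SE, 1.97-fold higher and ranked 5. After 4 doses its change was 0.025 ± 0.11 SE, with a 95% interval of -0.21 to 0.26 (adjusted p = 0.948). After 1 dose it was -0.16 ± 0.11 SE, with an interval of -0.39 to 0.072 (adjusted p = 0.61). Against Mstn-null muscle the change was -0.96 ± 0.11 SE after 4 doses and -1.14 ± 0.11 SE after 1 dose. Arrays after 4 doses lay below all Mstn-null arrays in both experiments, which held for 0.160% of all genes and among the 5 genes for Naaladl2 alone. Arrays after 1 dose did so for Naaladl2 and Ripor2, and for 0.231% of all genes. Mstn-null arrays lay above those of every other class in both experiments for 4 genes, or 0.0201% of all. Besides Naaladl2 these were Adamtsl1, Ankrd44 and Katnal2, named after their values were seen.

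The other 3 Naaladl2 rows were dimmer and differed among themselves. In rank order of mean level, the Mstn-null change was 0.98, 0.83, 0.43 and 0.12. The second row in experiment 2 ran from 4.62 to 5.55 in Mstn-null mice, from 4.515 to 4.63 after 1 dose, from 4.49 to 4.86 after 4 doses and from 4.30 to 4.506 in controls. All arrays after 1 dose lay above the controls there, and in experiment 1 they overlapped with them. The third row ran from 4.51 to 4.84 in Mstn-null mice, from 4.41 to 4.49 after 1 dose, from 4.49 to 4.64 after 4 doses and from 4.30 to 4.44 in controls. On rows 2 and 3 every Mstn-null array lay above every control in both experiments. Arrays after 4 doses all lay above the controls on row 2 in experiment 1 and on row 3 in experiment 2, and overlapped with them otherwise. On row 4 Mstn-null and control arrays overlapped in both experiments. In a limma fit of all 35556 rows, none of the 4 rows passed after 4 doses, with changes of 0.025, 0.21, 0.13 and 0.043 (adjusted p = 0.958, 0.479, 0.597 and 0.934). The sources used here do not say which part of the gene each row covers.

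**Figure D2:**
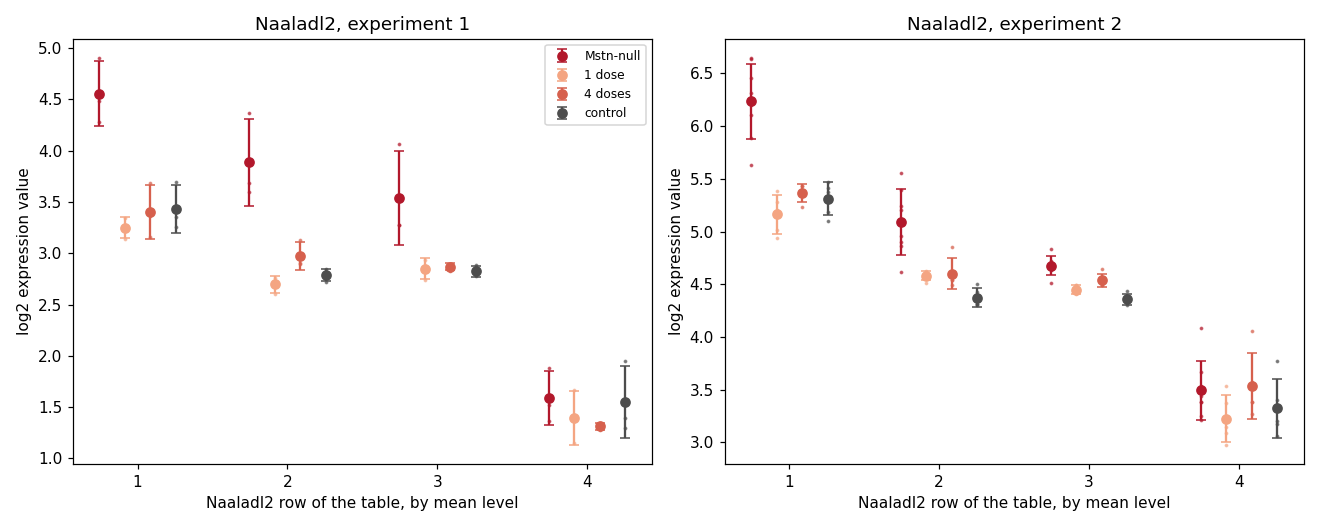
Log2 expression value (y axis) of the 4 Naaladl2 rows, numbered by mean level on the x axis, in experiment 1 (left) and experiment 2 (right). Large dots and bars are class means and SD, small dots are arrays. The Mstn-null class stands apart on row 1 in both experiments, and Mstn-null and control arrays overlap on row 4.

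Relatives of Naaladl2 gave no call after dosing. Of 5 other genes of the glutamate carboxypeptidase and transferrin receptor family, 0 passed in limma after 1 dose and 0 after 4 doses, with 2 at an unadjusted p under 0.05 in each. The transferrin receptor gene Tfrc had a change of 0.40 after 4 doses (adjusted p = 0.316) and Naalad2 one of 0.27 (adjusted p = 0.334). In Mstn-null muscle 2 of the 5 rose, and 0 passed in limma under quantile normalization, centring or the array range as a term.

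Sox4 was high in some Mstn-null mice and near the control level in others. Values (log2) in experiment 1 were 5.47, 5.62 and 7.33 in Mstn-null mice, 4.67, 5.05 and 4.84 after 1 dose, 4.81, 4.94 and 4.81 after 4 doses, and 4.60, 4.99 and 5.89 in controls. Only 1 of the 3 Mstn-null arrays exceeded the highest control, and no treated array did. Mstn-null arrays of experiment 2 ran from 6.22 over a median of 6.91 to 8.11. The values were 6.31, 6.05, 6.51, 6.20 and 6.98 after 1 dose, 6.30, 6.21, 6.29, 6.25 and 6.12 after 4 doses, and 6.33, 6.14, 6.01, 6.09 and 6.03 in controls. Here 7 of 8 Mstn-null arrays lay above every control, as did 2 of 5 arrays after 1 dose and 0 of 5 after 4 doses.

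The Mstn-null change of Sox4 was 0.93 ± 0.22 SE, 1.91-fold higher and ranked 9, with the widest error of the 5 genes. Its SD among Mstn-null arrays was 1.04 in experiment 1 and 0.71 in experiment 2, against 0.66 and 0.13 among controls. After 4 doses the change was -0.047 ± 0.24 SE, with a 95% interval of -0.52 to 0.43 (adjusted p = 0.952). After 1 dose it was 0.066 ± 0.24 SE, with an interval of -0.41 to 0.54 (adjusted p = 0.937). The wide error limits what can be said of Sox4 after treatment: the sign of both changes depended on the setting, and in experiment 2 the lowest Mstn-null array was reached by 3 of 5 arrays after 1 dose and by 3 of 5 after 4 doses.

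Of 17 other Sox genes, Sox7, an endothelial and progenitor factor, rose after 4 doses by 0.39 (adjusted p = 0.00843). Sox11 and Sox12, the closest relatives of Sox4, had changes of 0.18 (adjusted p = 0.206) and 0.16 (adjusted p = 0.333). After 1 dose 0 of 17 passed in limma, with 5 at an unadjusted p under 0.05. In Mstn-null muscle 12 of the 17 were higher and 1 lower, with a median change of 0.22. The count higher was 7 under quantile normalization and 5 after centring. With the array range as a term 0 of 17 passed in limma and the median was 0.045. Few genes of any kind passed there, so this count is near the background.

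Arrdc3 did not show the pattern for which the set was named. Experiment 1 gave log2 values of 7.46, 7.82 and 7.91 in Mstn-null mice, 6.15, 6.23 and 6.43 after 1 dose, 7.50, 7.64 and 7.39 after 4 doses, and 7.28, 6.86 and 7.70 in controls. Mstn-null, 4-dose and control arrays overlapped, and all arrays after 1 dose lay below the rest, as for 0.582% of all genes. Mstn-null arrays of experiment 2 ran from 9.31 over a median of 9.95 to 10.57. The values were 8.91, 8.91, 9.40, 9.02 and 8.75 after 1 dose, 8.56, 8.88, 9.13, 9.39 and 9.29 after 4 doses, and 9.66, 10.03, 9.74, 9.69 and 10.03 in controls. Of the Mstn-null arrays 3 lay above the controls, 2 below and the rest among them, and every treated array lay below every control, as for 0.948% of all genes.

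The Mstn-null change of Arrdc3 was 0.27 ± 0.17 SE, or 1.21-fold. After 1 dose the gene was lower than control by a change of -0.90 ± 0.18 SE, 1.86-fold lower (adjusted p = 0.00459). That change was -1.01 in experiment 1 (adjusted p = 0.123) and -0.83 in experiment 2 (adjusted p = 0.046). Arrays after 1 dose lay below all controls in both experiments, which held for 0.391% of all genes. After 4 doses the change was -0.40 ± 0.18 SE (adjusted p = 0.294), made of 0.23 in experiment 1 (adjusted p = 0.729) and -0.78 in experiment 2 (adjusted p = 0.0404). The experiments thus gave opposite signs, with a difference of -1.01 ± 0.32 SE that did not pass over all genes (adjusted p = 0.358, unadjusted p = 0.00392). The 4-dose against 1-dose change was 1.24 in experiment 1 (adjusted p = 0.0133) and 0.053 in experiment 2 (adjusted p = 0.986), and that difference did not pass (adjusted p = 0.189). Of all genes, 0% differed between experiments after 1 dose (0 of 19938 in limma, with 1022 at an unadjusted p under 0.05) and 0.00502% after 4 doses. Against Mstn-null muscle the change of Arrdc3 was -1.17 ± 0.17 SE after 1 dose and -0.67 ± 0.17 SE after 4 doses.

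Other alpha-arrestins moved in both directions. Arrdc2, a close relative of Arrdc3, was lower after 4 doses by a change of -0.84 ± 0.18 SE (adjusted p = 0.00459) and after 1 dose by -0.75 ± 0.18 SE (adjusted p = 0.0285). In experiment 1 its mean was 6.84 ± 0.26 in Mstn-null mice, 6.78 ± 0.82 after 1 dose, 6.95 ± 0.35 after 4 doses and 7.90 ± 0.08 in controls (SD, n = 3 each). Unlike Arrdc3 it was lower in Mstn-null muscle too, by -0.81 ± 0.17 SE (adjusted p = 0.000533). Under quantile normalization the change after 1 dose did not pass (adjusted p = 0.0702), nor did the Mstn-null change with the array range as a term (adjusted p = 0.0623). Over both experiments Arrdc4 rose by 0.37 after 1 dose (adjusted p = 0.0159) and by 0.34 after 4 doses (adjusted p = 0.0148), and passed in neither once arrays were centred on their medians. In experiment 1 its mean was 5.48 after 1 dose, 5.07 after 4 doses and 5.08 in controls. In experiment 2 it was 6.93, 7.13 and 6.57, so the rise after 4 doses came from experiment 2. Txnip, a relative that restrains glucose uptake, had changes of 0.15 after 1 dose (adjusted p = 0.57) and -0.17 after 4 doses (adjusted p = 0.442). In total 1 of 5 relatives rose and 1 fell in each dose comparison.

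**Figure D3:**
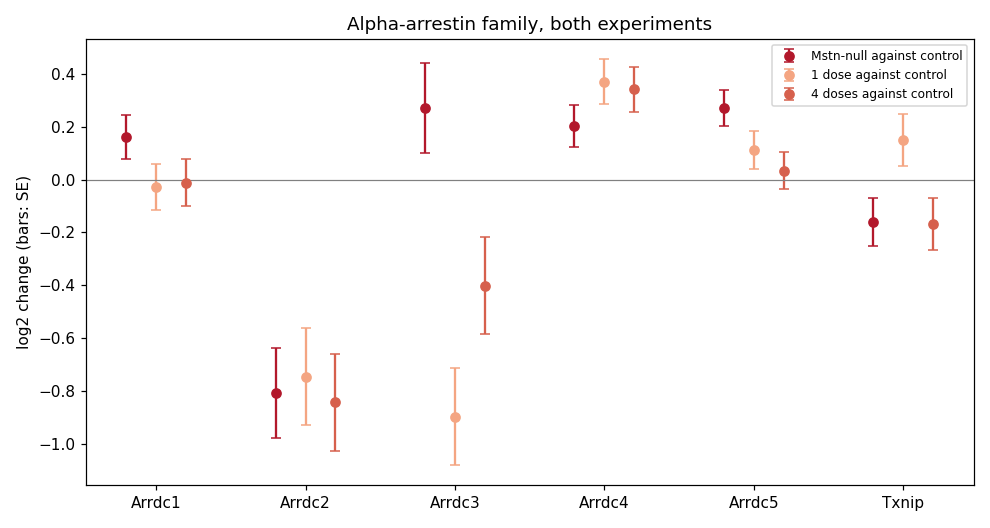
Log2 change against control (y axis) of the 6 alpha-arrestin genes (x axis) in Mstn-null mice, after 1 dose and after 4 doses, over both experiments, with bars of 1 SE. Arrdc2 lies below 0 in all 3 comparisons, and Arrdc3 lies at -0.90 after 1 dose and at 0.27 in Mstn-null mice.

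Calls among genes around Arrdc3 and the Smad pathway stand beside 1.11% of all genes called after 1 dose and 3.14% after 4 doses. Of 9 ubiquitin ligases of the Nedd4 family, Nedd4l rose after 4 doses by 0.31 (adjusted p = 0.00495). After 1 dose 0 of 9 passed in limma, with 2 at an unadjusted p under 0.05. Of 14 measured genes of beta-adrenergic and cAMP signalling, Nr4a2, an orphan nuclear receptor induced by cAMP, rose after 1 dose by 0.50 (adjusted p = 0.0201). After 4 doses 0 of 14 passed in limma, with 2 at an unadjusted p under 0.05. Of 14 measured TGF-beta and Smad target genes, Pmepa1, an inhibitor of Smad signalling that Smads induce, was lower after 1 dose by a change of -0.52 (adjusted p = 0.00236) and after 4 doses by -0.44 (adjusted p = 0.00705). Klf10, an early target of the pathway, rose after 1 dose by 0.55 (adjusted p = 0.02) and had a change of 0.0051 after 4 doses (adjusted p = 0.991). Nr4a2 and Klf10 were named after their values were seen. In Mstn-null muscle Pmepa1 had a change of -0.11 (adjusted p = 0.327).

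**Figure D4:**
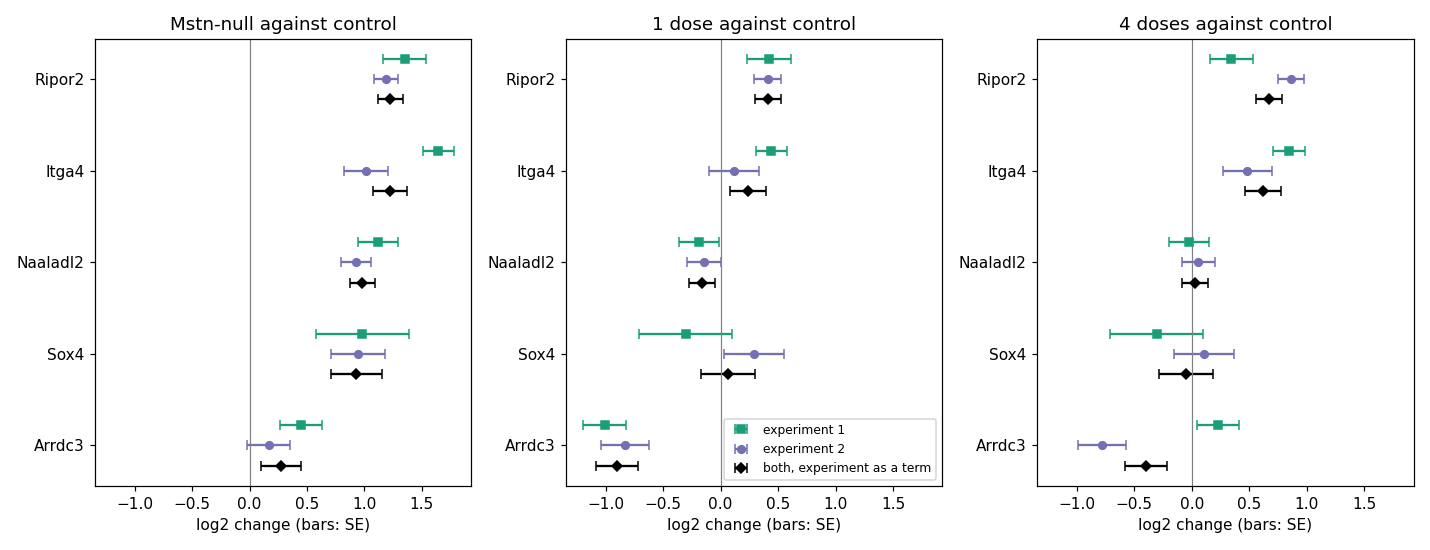
Log2 change against control (x axis) of the 5 genes (y axis) in Mstn-null mice, after 1 dose and after 4 doses, with bars of 1 SE. Squares are experiment 1, circles experiment 2 and diamonds both with the experiment as a term. After 4 doses Ripor2 and Itga4 lie right of 0 in both experiments, Naaladl2 lies near 0, Sox4 lies at -0.31 and 0.11, and Arrdc3 after 4 doses lies on opposite sides of 0 in the 2 experiments.

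The Mstn-null changes can be set beside those of other rows. In Mstn-null muscle genes of like brightness had a median change of -0.19 for Itga4 and Arrdc3, 0.019 for Ripor2, 0.12 for Sox4 and 0.15 for Naaladl2. The changes of the genes themselves were 1.22, 0.27, 1.22, 0.93 and 0.98 in that order. Across the 35 arrays, centred on their experiment, the highest pairwise correlations were 0.83 for Itga4 with Naaladl2, 0.81 for Ripor2 with Itga4 and 0.80 for Ripor2 with Naaladl2. The lowest was 0.28, for Ripor2 with Arrdc3. Class means make up part of these values: within groups the correlations were 0.62, 0.29, 0.53 and 0.19 in the same order, and -0.14 for Itga4 with Sox4. The arrays share the spread described above, so these are descriptions.

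By the same measure over 35 arrays, the genes most like Itga4 were Zc3h12c (r = 0.87), Psd3 (0.85) and Ctnna3 (0.85). Ctnna3, an alpha-catenin of cell junctions, was also among the 3 most like Ripor2 (r = 0.80), with Itga4 and Naaladl2 the others. Its change was 0.78 after 4 doses and 0.068 after 1 dose, on a gene picked for its likeness over these arrays. In experiment 1 its mean was 6.51 ± 0.18 in Mstn-null mice, 5.70 ± 0.08 after 1 dose, 6.52 ± 0.29 after 4 doses and 5.54 ± 0.23 in controls (SD, n = 3 each). In experiment 2 it was 8.42 ± 0.38 in 8 Mstn-null mice, 7.56 ± 0.12 after 1 dose, 8.21 ± 0.15 after 4 doses and 7.55 ± 0.11 in controls. Arrays after 4 doses lay within the Mstn-null range in experiment 2 and overlapped with it in experiment 1.

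The genes most like Naaladl2 were Ankrd44 (r = 0.86), Samd8 (0.84) and Musk (0.83), the receptor kinase of the neuromuscular junction. Their changes after 4 doses were -0.031, 0.046 and 0.058. For Sox4 they were Cnksr3 (0.73), the inhibitor of NF-kappaB Nfkbia (0.70) and Stc2 (0.70). For Arrdc3 they were Slc10a6 (0.82), the cAMP phosphodiesterase Pde7a (0.80) and Rc3h1 (0.80), an RNA-binding regulator of mRNA decay. After 1 dose Pde7a had a change of -0.88 and Rc3h1 one of -0.57, and after 4 doses -0.50 and 0.0022. These genes were picked for their likeness over the same arrays, class differences included, so a shared change is part of the choice. Complete separation of Mstn-null arrays above controls in both experiments, seen for Ripor2, Itga4 and Naaladl2, held for 1.40% of all genes.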

How the data were processed

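RNA from quadriceps muscle was hybridised to 35 arrays, 1 per mouse, per the labels' protocols. The deposited table holds log2 values. RMA is the authors' summary method named in the submitters' processing notes. Those notes list R 2.11.1 and limma 3.4.4 too, with no role. Base 2 is taken from the range of the values. Of 35556 rows, 21789 were annotated with 1 gene symbol, 1621 with several and 12146 with none. Rows with 1 symbol were kept, the row with the highest mean for each of 999 genes with more than 1, which left 19938 genes.

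Comparisons were two-sided moderated tests from lmFit and eBayes (limma 3.58.1, R 4.3.3). One fit held all 35 arrays, with terms for class and for experiment, and p-values were adjusted by Benjamini-Hochberg over all genes (threshold 0.05). A fit of group means tested differences between experiments. Beside main separations between groups stands the share of all genes with the same separation, but not for the dimmer Naaladl2 rows. The fit was tested on simulated data: for 4 doses against control, 79% of 100 genes set to a log2 change of 0.5 were recovered, and 100% of those set to 1, among 19938 genes. The simulated noise was independent between genes, and the set changes were equal in both experiments. The array spread described above was not simulated, so these shares need not hold for the real arrays. No control-probe or background data were used, and the number of arrays limits the precision.

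The genes, the lists of related genes and marker genes, and the tests were chosen with earlier results of these data known. Other genes named are Mstn, the 3 most correlated with each gene and up to 4 of each list with the smallest p after 4 doses, with exceptions stated. The result of 1 list is not reported here. Alternatives included quantile normalization, median centring, the array interquartile range as a term, array weights, each experiment alone, other row choices, a replicate block and leaving out each array. Within groups, arrays correlated at 0.954 to 0.996.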

Additional observations from a re-analysis of the deposited data

How the results depend on the processing

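A tested result was counted as kept if its direction and side of the threshold held, whatever its size. An untested result was kept if its direction held and it moved by less than the residual SD of the gene. Over settings other than leaving out an array, 331 of 354 results were kept. Leaving out 1 array kept 1044 of 1050. Experiment 1 alone gave Itga4 in Mstn-null muscle at 1.64, Ripor2 after 4 doses at 0.34 (adjusted p = 0.563), Arrdc3 after 1 dose at -1.01 (0.123), after 4 doses at 0.23, and 4 doses against 1 dose at 1.24 (0.0133). There Sox4 after 1 dose was -0.30, Naaladl2 after 4 doses -0.029, Ripor2 in 4 doses against 1 dose -0.075, and against Mstn-null the 4-dose change was -1.005 for Ripor2 and -0.22 for Arrdc3. No myeloid marker was called after 4 doses in limma there (0 of 12). Experiment 2 alone gave Itga4 after 4 doses at 0.48 (0.335), Sox4 at 0.11 and Arrdc3 at -0.78 (0.0404). Array weights gave Ripor2 after 1 dose at 0.44 (0.00511), Sox4 at -0.0074, and Arrdc3 after 4 doses at -0.46 (0.0435) and against 1 dose at 0.57 (0.0287); they raised the genes called after 1 dose to 1743, against 222, after 4 doses to 1543, against 626, and between doses to 437, against 64. Naaladl2 after 4 doses was -0.0059 after quantile normalization and -0.014 after median centring, and Sox4 was 0.058 with the array range as a term. That term called 154 genes between doses, and centring 40. Experiment 1 alone called 5 genes after 1 dose and 53 after 4 doses, experiment 2 alone 42 between doses, and all rows together 36. The mean of all Naaladl2 rows gave 0.59 in Mstn-null muscle and -0.62 and -0.49 for 1 dose and 4 doses against it. The causes were not tested. A filter on dim genes left Naaladl2 out.

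Leaving out 1 array at a time, Ripor2 after 1 dose ranged from 0.37 to 0.45, called only without Mstn-null replicate 1 of experiment 1 (adjusted p = 0.0492), Naaladl2 after 4 doses from -0.0066 to 0.072, Sox4 after 1 dose from -0.037 to 0.20 and after 4 doses from -0.11 to 0.085. The calls held in each: Ripor2 after 4 doses from 0.62 to 0.73, Itga4 from 0.58 to 0.66 (adjusted p = 0.00573 to 0.0453) and Arrdc3 after 1 dose from -0.99 to -0.84. Genes called ranged from 147 to 327 after 1 dose, 456 to 698 after 4 doses and 27 to 83 between doses. The omission of Mstn-null replicates 6, 7 and 8 of experiment 2, chosen after seeing the data, changed no call of the 5 genes. Replicate numbers marked no shared litter or day in the labels. Of 48 pairs with the same number 18 correlated above 0.1, and of 201 pairs with different numbers 57 did. The median correlation was 0.0049 and -0.0094. These counts do not settle whether the mice were paired, and the main fit did not pair them. A replicate block gave Itga4 after 4 doses at 0.62 (adjusted p = 0.00976), changed no call of the 5 genes, and called 231, 654 and 59 genes in the comparisons above. Mstn-null replicates 6, 7 and 8 of experiment 2 have no partner by number, so they added nothing to its class changes. Its Mstn-null changes are thus those found without these arrays. The block could alter only the error of the dose changes, not their size. Of 32 arrays 12 correlated best with their own number.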

Other observations

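Markers of other cells of muscle were counted as well. After 4 doses 2 of 9 measured genes of fibro-adipogenic progenitors rose: Col3a1, a fibrillar collagen, by 0.74 (limma adjusted p = 0.00705) and Cd34, a surface protein of progenitors and vessels, by 0.38 (adjusted p = 0.0482). Of 10 satellite cell and myoblast genes 2 rose after 4 doses, Vcam1 as given above and Chrdl2 by 0.26 (adjusted p = 0.036). That count was 1 under quantile normalization, after centring and with the array range as a term. After 1 dose Myog, a factor of differentiating myoblasts, rose by 0.59 (adjusted p = 0.0136). Of 8 smooth muscle and pericyte genes 1 fell after 4 doses, the smooth muscle myosin Myh11, with a change of -0.52 (adjusted p = 0.00272). After 4 doses 0 of 10 endothelial, 0 of 6 neutrophil, 0 of 5 Schwann cell, 0 of 6 adipocyte and 0 of 8 muscle fibre markers passed in limma, with 1, 0, 0, 2 and 3 at an unadjusted p under 0.05. In Mstn-null muscle 5 of 10 endothelial markers were lower, with a median change of -0.29, or 0.052 with the array range as a term, where few genes of any kind passed.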
